A study of Mus musculus with 24 samples.

Results

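Retinas of C57Bl/6 mouse pups were compared at postnatal day 7 after 12 hours of hyperoxia and in room air, with 3 arrays in each group. These are 6 of the 24 arrays of a series that also followed days 8, 10 and 12, after 24, 72 and 120 hours of hyperoxia and in room air at the same ages. The labels state no transgene, drug or second treatment in either group. They do not give the oxygen concentration, the hour of dissection or the number of pups behind an array, nor whether the 3 samples came from separate litters. The p-values therefore reflect the scatter of the samples in this series, part or all of which may be technical. Every probe set other than the hybridisation controls was used. Of 22626 such probe sets, 15838 passed a filter on low signal and were tested, and 14631 of these carried a single gene symbol, standing for 9266 genes.

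Hypoxia-inducible factor (HIF) is a transcription factor whose alpha subunit is hydroxylated by prolyl hydroxylases when oxygen is plentiful and is then degraded through the von Hippel-Lindau protein. When oxygen is short the subunit persists, binds DNA with its partner Arnt and raises genes of glycolysis, of lactate export, of mitochondrial adjustment and of vessel growth. In the mouse the retinal vessels spread over the inner surface during the first postnatal week, ahead of which the avascular tissue is normally low in oxygen and makes Vegfa, the main growth factor of endothelial cells. Raised oxygen given at this age interrupts that spread, and the procedure is used as a model of retinopathy of prematurity.

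After 12 hours of hyperoxia 10 probe sets were lower and 0 were higher, at a Benjamini-Hochberg adjusted p under 0.05 in limma. That is 0.0631% of the probe sets tested, while 502 (3.17%) had an unadjusted p under 0.05, of which 226 were lower (1.43%) and 276 higher (1.74%). The 10 probe sets stood for 9 genes: Pdk1, Slc16a3, Ak4, Vegfa, Grhpr, Bnip3, Pfkl, Tpi1 and Pgam1. All but Grhpr are on a list of 60 HIF targets, which was drawn up with earlier results of these data known and so is no independent evidence of a direction. Across all probe sets the median difference was 0.01 on the log2 scale, and the 1st and 99th percentiles were -0.60 and 0.49. The arrays as a whole were not separated by treatment: Pearson correlations over the probe sets tested ran from 0.960 to 0.980 between a hyperoxia and a room air array and from 0.962 to 0.975 within a group. The number of arrays limits the precision, and the median standard error of a difference was 0.17. Each SE and p came from 1 fit to all 24 arrays, with the spread shared over the 8 groups. A fit on the 6 day 7 arrays alone called 0 probe sets.

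The start-site regions of 5 of these genes are shown because the called genes moved together and because HIF is known to bind a short core sequence, ACGTG or GCGTG. Each is a RefSeq window on GRCm38.p6 of 250 bases before and 50 bases after an annotated start, the most upstream one where a gene has several, printed 5′ to 3′ on the gene's strand. The windows are Pdk1 at chr2:71872974-71873273, plus strand, Slc16a3 at chr11:120948817-120949116, plus strand, Ak4 at chr4:101419039-101419338, plus strand, Bnip3 at chr7:138909457-138909756, minus strand, and Vegfa at chr17:46032328-46032627, minus strand. Capitals mark ACGTG and GCGTG on either strand, the other strand reading as CACGT and CACGC; matches may overlap, as in Bnip3.
Pdk1: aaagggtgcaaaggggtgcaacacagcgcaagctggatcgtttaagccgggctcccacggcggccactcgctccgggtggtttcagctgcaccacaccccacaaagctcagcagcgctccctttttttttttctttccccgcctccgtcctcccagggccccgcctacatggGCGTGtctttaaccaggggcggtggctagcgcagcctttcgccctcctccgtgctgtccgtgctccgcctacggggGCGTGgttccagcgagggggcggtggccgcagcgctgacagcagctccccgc
Slc16a3: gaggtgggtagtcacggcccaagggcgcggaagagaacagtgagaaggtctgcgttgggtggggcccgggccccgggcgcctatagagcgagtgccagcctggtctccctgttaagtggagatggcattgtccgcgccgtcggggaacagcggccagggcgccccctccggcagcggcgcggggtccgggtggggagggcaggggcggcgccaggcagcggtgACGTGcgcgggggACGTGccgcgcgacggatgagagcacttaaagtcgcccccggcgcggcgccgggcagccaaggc
Ak4: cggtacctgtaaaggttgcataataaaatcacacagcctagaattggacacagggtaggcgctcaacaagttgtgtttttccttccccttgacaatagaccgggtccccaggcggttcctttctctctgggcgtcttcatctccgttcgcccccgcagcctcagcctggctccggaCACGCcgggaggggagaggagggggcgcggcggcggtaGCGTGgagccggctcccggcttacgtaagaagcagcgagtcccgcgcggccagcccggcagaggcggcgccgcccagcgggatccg
Bnip3: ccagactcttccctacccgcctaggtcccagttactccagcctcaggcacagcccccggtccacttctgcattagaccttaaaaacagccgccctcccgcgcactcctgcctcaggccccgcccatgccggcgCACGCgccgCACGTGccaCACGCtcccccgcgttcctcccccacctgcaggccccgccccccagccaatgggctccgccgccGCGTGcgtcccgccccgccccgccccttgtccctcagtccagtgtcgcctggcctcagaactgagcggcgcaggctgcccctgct
Vegfa: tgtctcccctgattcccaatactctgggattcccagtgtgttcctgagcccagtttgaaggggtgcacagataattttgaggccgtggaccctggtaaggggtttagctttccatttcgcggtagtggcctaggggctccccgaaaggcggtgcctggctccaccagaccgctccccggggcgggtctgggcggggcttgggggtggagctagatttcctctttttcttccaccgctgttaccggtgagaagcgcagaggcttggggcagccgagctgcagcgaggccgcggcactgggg

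Counted from the start site, the first base of a match lay at -78 and -2 in Pdk1, at -27 and -14 in Slc16a3, at -74 and -36 in Ak4, and at -117, -108, -107, -99 and -35 in Bnip3. The Vegfa window held none of these letters, nor did that of Tpi1. Of the 9 called genes 7 (77.8%) held a match, against 4738 of 7510 tested genes with a window (63.1%) and 11848 of 27025 genes in the RefSeq table (43.8%). A match is a description of the letters and not a bound site.

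A kinase of the pyruvate dehydrogenase complex had the greatest difference among the called probe sets. Pdk1 phosphorylates and inhibits pyruvate dehydrogenase. Its called probe set stood at 8.36, 8.35 and 8.19 on the log2 scale on the hyperoxia arrays, against 9.52, 9.22 and 9.64 on the room air arrays. The groups were far apart and did not overlap. The deposited signals of the same probe set were 319.7, 331.2 and 308.5 in hyperoxia and 731.3, 627.8 and 841.4 in room air. Pdk1 fell by 1.16 ± 0.18 (SE from the fit over 24 arrays, n = 3 each, adjusted p = 0.00838), a hyperoxia to room air ratio of 0.448. A second Pdk1 probe set, at 9.94, 9.80 and 9.27 in hyperoxia and 10.46, 10.45 and 10.34 in room air, also did not overlap and differed by -0.74 ± 0.14 (adjusted p = 0.0681).

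The other pyruvate dehydrogenase kinases did not pass. Pdk2 differed by 0.05 ± 0.14 with overlapping arrays, and Pdk3 by -0.25 ± 0.11 without overlap. The probe sets of the enzyme's catalytic subunits differed by little relative to their errors, the brighter one of Pdha1 by 0.06 ± 0.13 and that of Pdhb by -0.01 ± 0.11. Of 7 measured genes of the pyruvate dehydrogenase list 0 were called when each gene was represented by its brightest probe set, against 0.0755% of all genes. For Pdk1 the brightest probe set was the second one above.

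Slc16a3 encodes MCT4, a transporter that exports lactate from glycolytic cells. Its values were 9.25, 9.50 and 9.34 in hyperoxia and 10.03, 10.76 and 10.47 in room air. The SD was 0.13 in hyperoxia and 0.37 in room air, and every hyperoxia array stayed below the lowest room air array. Slc16a3 fell by 1.06 ± 0.18 (adjusted p = 0.0235), and it no longer passed when dim probe sets were kept in the test. Slc16a1, the lactate transporter MCT1, differed by -0.23 ± 0.18 and did not pass. Slc2a1, the glucose transporter GLUT1, had 3 probe sets at -0.21 ± 0.14, -0.29 ± 0.18 and -0.36 ± 0.20, none of which passed. Of 8 measured transport genes 1 was called and 7 had a negative difference, against 0.0755% and 43.1% of all genes. Their median of -0.22 was not stable: it was -0.07 with the pigment epithelium level as a covariate, and leaving out single arrays it ran from -0.34 (hyperoxia replicate 2) to -0.06 (room air replicate 2), with -0.13 when hyperoxia replicate 1 was dropped.

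Vegfa, the secreted factor that guides endothelial growth, was at 10.17, 10.40 and 10.27 in hyperoxia and at 11.30, 11.26 and 10.93 in room air. It fell by 0.88 ± 0.13 (adjusted p = 0.0077), a ratio of 0.542. Every hyperoxia array lay below every room air array. The second Vegfa probe set differed by more, -1.09 ± 0.22, but with wider scatter (adjusted p = 0.103): it read 9.29, 9.87 and 9.36 in hyperoxia and 10.43, 10.50 and 10.87 in room air.

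Ak4 is a mitochondrial adenylate kinase that transfers phosphate between adenine nucleotides and that rises in hypoxia. It was called by both of its probe sets. The first read 8.86, 9.07 and 8.72 in hyperoxia and 9.76, 9.87 and 9.92 in room air, and fell by 0.96 ± 0.15 (adjusted p = 0.00838). The other read 8.85, 8.73 and 8.43 in hyperoxia and 9.85, 9.55 and 9.61 in room air, and fell by 1.00 ± 0.17 (adjusted p = 0.0184). Both placed every hyperoxia array below every room air array. By the brightest probe set of each gene, Ak4 was the 1 negative member of 4 measured adenylate kinases, while 43.1% of all genes were negative. Ak1, the cytosolic form, stood at 0.12 ± 0.12, Ak3 at 0.04 ± 0.24 and Ak5 at 0.08 ± 0.21.

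Bnip3, an outer mitochondrial membrane protein that marks mitochondria for mitophagy, read 11.87, 11.84 and 11.81 in hyperoxia and 12.71, 12.35 and 12.69 in room air. The hyperoxia arrays lay within 0.06 of each other on the log2 scale. Bnip3 fell by 0.74 ± 0.12 (adjusted p = 0.0164). Grhpr, which reduces glyoxylate and hydroxypyruvate and is not on the HIF list, read 9.86, 9.95 and 9.79 in hyperoxia and 10.52, 11.03 and 10.68 in room air. It fell by 0.87 ± 0.15 (adjusted p = 0.0273).

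**Figure D1:**
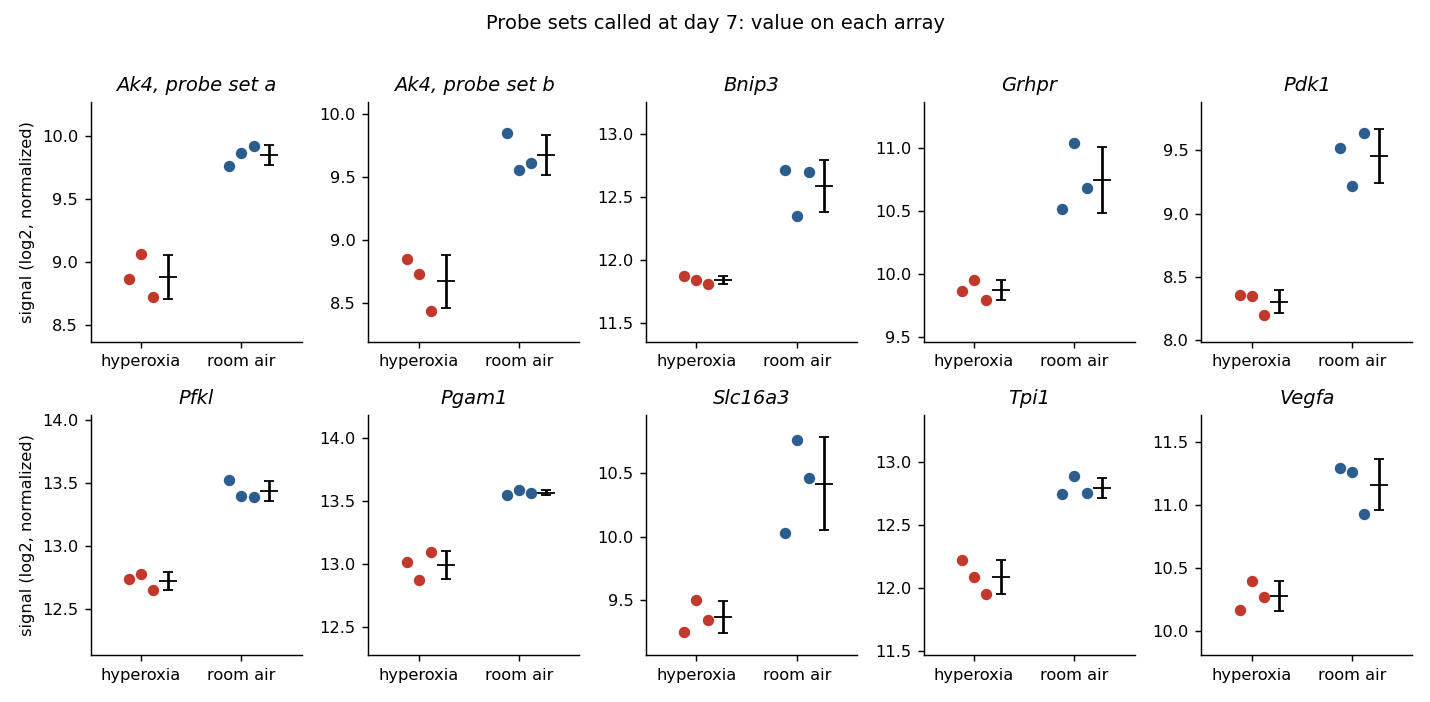
Normalized log2 signal (y axis) on each of the 3 hyperoxia (red) and 3 room air (blue) arrays of day 7 for the 10 called probe sets; bars are mean ± SD and every panel spans the same range. In all 10 panels the hyperoxia arrays lie below the room air arrays without overlap, from a difference of -1.16 for Pdk1 to -0.57 for Pgam1.

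Within glycolysis, 3 enzymes were called. Pfkl, the liver-type subunit of phosphofructokinase, which commits sugar to glycolysis, read 12.74, 12.78 and 12.65 in hyperoxia and 13.53, 13.40 and 13.39 in room air. It fell by 0.71 ± 0.11 (adjusted p = 0.00838), and its other probe set differed by -0.67 ± 0.13 (adjusted p = 0.0789). Both probe sets of Pfkl were thus lower by nearly the same amount, with no overlap.

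Tpi1, which interconverts the triose phosphates, read 12.23, 12.09 and 11.96 in hyperoxia and 12.75, 12.89 and 12.75 in room air by its called probe set, and fell by 0.71 ± 0.10 (adjusted p = 0.0077). Its other probe sets differed by -0.38 ± 0.12 and -0.40 ± 0.12, did not overlap between the groups and did not pass. Pgam1, phosphoglycerate mutase, had the lowest p of all. It read 13.01, 12.87 and 13.09 in hyperoxia and 13.55, 13.59 and 13.56 in room air, and fell by 0.57 ± 0.08 (adjusted p = 0.0077).

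Several enzymes next to these were lower on every hyperoxia array by at least 1 probe set and missed the threshold. Pfkp, the platelet-type phosphofructokinase, differed by -0.71 ± 0.14 (adjusted p = 0.0789) and -1.07 ± 0.28 by its 2 probe sets. Pfkfb3, which makes the fructose bisphosphate that activates phosphofructokinase, read 8.24, 8.29 and 8.15 in hyperoxia and 9.56, 8.74 and 9.14 in room air, a difference of -0.92 ± 0.25; its other probe set was at -0.30 ± 0.22, also without overlap. Pgk1, phosphoglycerate kinase, differed by -0.89 ± 0.20, -0.46 ± 0.10 and -0.34 ± 0.11 over 3 probe sets, all without overlap. Aldoa, an aldolase, ranged over 4 probe sets between -0.56 ± 0.12 and -0.16 ± 0.13, and the arrays overlapped for 2 of them. Pkm, pyruvate kinase, differed by -0.23 ± 0.08 and Ldha, lactate dehydrogenase A, by -0.15 ± 0.09, each without overlap.

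Several other enzymes of glycolysis had differences near 0. The muscle-type phosphofructokinase Pfkm was at -0.00 ± 0.13, the hexokinase Hk1 at 0.00 ± 0.11 by its brightest probe set, Hk2 at -0.08 ± 0.22, and the neuronal enolase Eno2 at -0.02 ± 0.13. Their 95% ranges were not computed, and the standard errors show the size of change that could have been missed. By the brightest probe set of each gene, 14 of 16 measured glycolysis genes had a negative difference, against 43.1% of all genes tested. For 8 of the 16 the arrays did not overlap and were lower, against 2.29% of all genes. The median was -0.15, but -0.30 with the deposited scaling, -0.25 as a mean over all probe sets of a gene and -0.25 without hyperoxia replicate 2. The mean log2 level of the list was 12.38, 12.43 and 12.29 in hyperoxia and 12.65, 12.63 and 12.65 in room air, with no overlap.

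**Figure D2:**
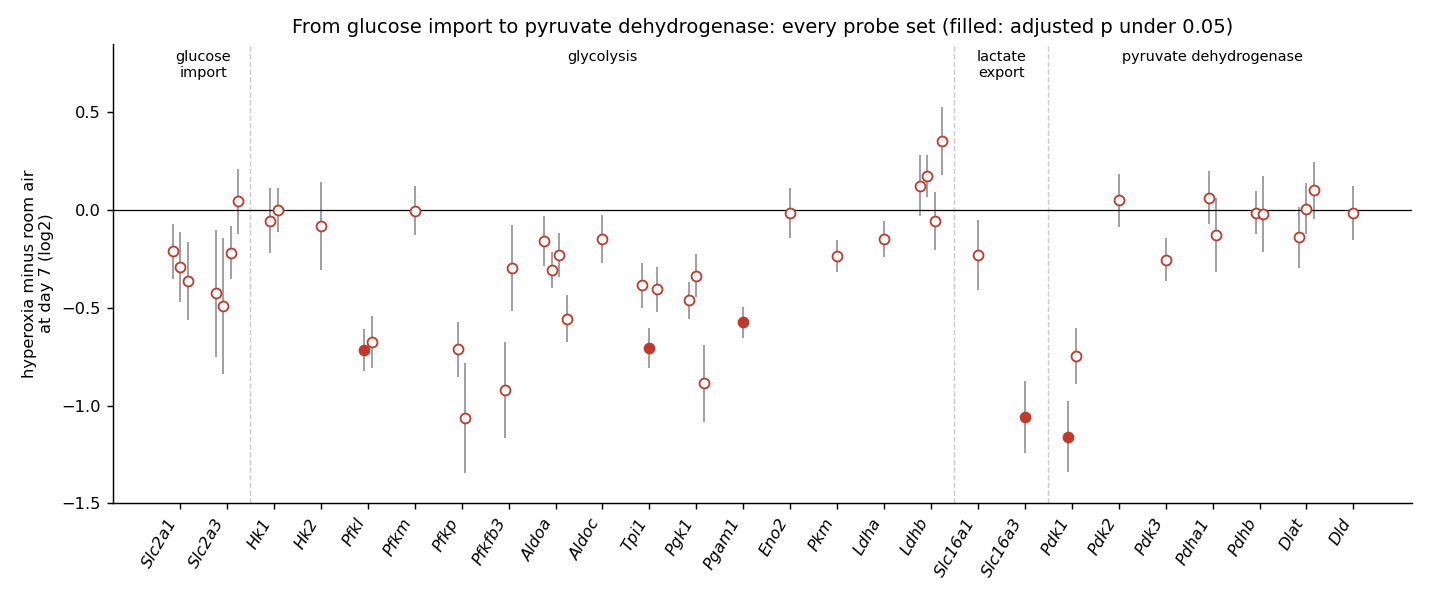
Day 7 log2 difference, hyperoxia minus room air (y axis), for every tested probe set of enzymes and transporters placed in pathway order (x axis); bars are SE and filled points have an adjusted p under 0.05. The filled points are Pfkl, Tpi1, Pgam1, Slc16a3 and Pdk1, between -0.57 and -1.16, while Pfkm, Hk1, Eno2 and Pdk2 lie within 0.1 of 0.

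Of the 60 HIF targets listed, 48 were measured. Adm, Gys1 and Stc2 were too dim to test, and 9 others, among them Gapdh, Eno1 and Epo, had no probe set of their own symbol. With each gene represented by its brightest probe set, 6 fell (Slc16a3, Ak4, Vegfa, Bnip3, Pfkl and Pgam1), 0 rose, and 42 did not pass; 0.0755% of all 9266 genes were called lower in this way. Of the 48, 39 had a negative difference, against 43.1% of all genes. For 18 it was negative with an unadjusted p under 0.05, against 1.15% of all genes. For 20 the hyperoxia arrays lay below the room air arrays without overlap, against 2.29% of all genes, and for 1, Ero1a, above, against 4.61%. The median difference of the list was -0.23, against 0.02 over all genes.

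The mean log2 level of the 48 genes was 11.08, 11.09 and 11.05 on the hyperoxia arrays and 11.35, 11.38 and 11.34 on the room air arrays. Of the 25 probe sets with the lowest p, 18 belonged to the HIF list, which makes up 0.587% of the probe sets tested. Because the list was drawn up with earlier results of these data known, its counts are a description and no independent evidence. Where a target had several probe sets they mostly pointed the same way: of 28 such genes, 18 had only negative differences and 9 were lower without overlap by every probe set, against 21.8% and 0.342% of the 3509 genes with several probe sets.

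The targets outside sugar metabolism that came closest to the threshold were Fam162a, a mitochondrial protein, at -0.42 ± 0.09 (adjusted p = 0.12), and the cytokine Mif at -0.49 ± 0.11 (adjusted p = 0.139). P4ha1, a subunit of the collagen prolyl hydroxylase, differed by -0.76 ± 0.22 and -0.42 ± 0.13. Cox4i2, an alternative subunit of cytochrome c oxidase, differed by -0.59 ± 0.21, and Kdm3a, a histone demethylase, by -0.34 ± 0.12. In all 5 of these genes the hyperoxia arrays lay below the room air arrays, and none passed.

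Not every known target was lower. By the brightest probe set, Ddit4, an inhibitor of mTOR signalling, was at -0.02 ± 0.18 and Ndrg1, a stress-induced gene, at 0.00 ± 0.09, both with overlapping arrays. Egln3, a prolyl hydroxylase that is itself induced by HIF, was positive by both probe sets, 0.35 ± 0.19 and 0.53 ± 0.29, with overlapping arrays. Hmox1, heme oxygenase, was at 0.30 ± 0.61, the least precise of the 48 values.

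**Figure D3:**
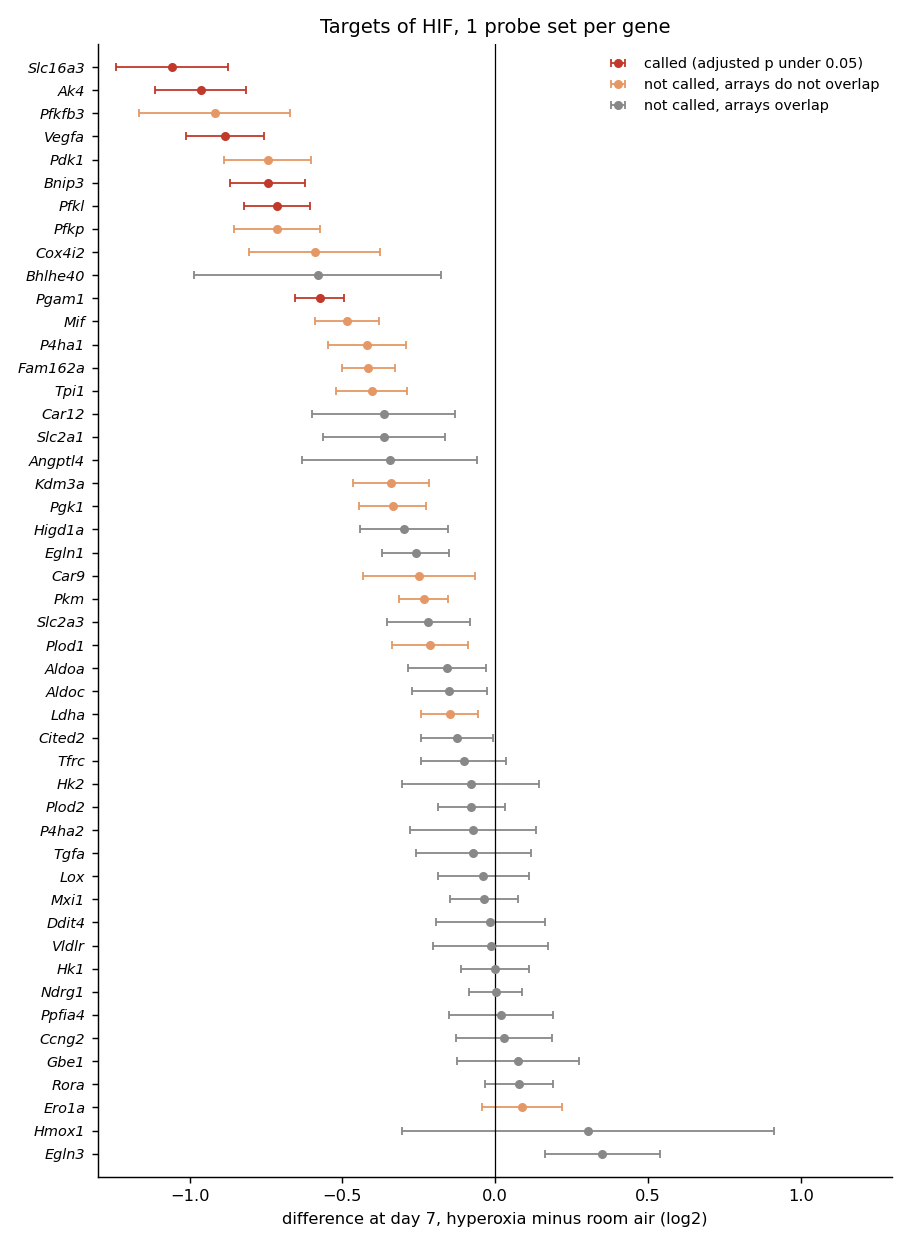
Day 7 log2 difference, hyperoxia minus room air (x axis), ± SE for the 48 measured HIF targets, each by its brightest probe set and ordered by size. Red points passed an adjusted p under 0.05, orange points did not pass but have arrays that do not overlap, and grey points have overlapping arrays; 39 of 48 lie left of 0.

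The genes that sense oxygen did not pass at the RNA level. Of 12 measured members of that list 0 were called and 8 were negative, against 0.0755% and 43.1% of all genes. The hyperoxia arrays lay wholly below the others for 0 members and wholly above for 1, against 2.29% and 4.61% of all genes. At such shares a count of 0 in a list this short says little. Egln1, the main prolyl hydroxylase, was at -0.26 ± 0.11 and -0.27 ± 0.20. Epas1, the HIF-2 alpha subunit, was at -0.07 ± 0.38 and Vhl at -0.20 ± 0.23. Hif1a was measured by 4 probe sets that pointed both ways, from -0.58 ± 0.53 to 0.23 ± 0.13, with overlapping arrays in each.

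Genes of vessels were measured in whole retina, where fewer cells of a type and less RNA per cell cannot be told apart. Of 20 measured angiogenic factors and receptors 1 was called, Vegfa, and 14 were negative, against 0.0755% and 43.1% of all genes. Kdr, the main Vegfa receptor of endothelial cells, read 11.68, 12.32 and 12.15 in hyperoxia and 11.94, 12.03 and 12.01 in room air, a difference of 0.06 ± 0.16 with overlap. Apln, a peptide of tip cells, was at -0.39 ± 0.18, and Angpt2, which destabilises vessels, at 0.47 ± 0.35.

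Of 19 measured endothelial markers 0 were called, 16 were negative and 3 were lower without overlap, against 0.0755%, 43.1% and 2.29% of all genes. Their median was -0.22, and it was -0.13 when hyperoxia replicate 3 was dropped and -0.14 when room air replicate 2 was. Sox17, an endothelial transcription factor, read 7.69, 7.55 and 7.50 in hyperoxia and 8.11, 8.18 and 8.30 in room air, a difference of -0.62 ± 0.19. Cd34 differed by -0.50 ± 0.19 and the tight junction gene Cldn5 by -0.45 ± 0.19. Taken as a mean log2 level, the endothelial list was at 9.36, 9.46 and 9.11 in hyperoxia and 9.54, 9.72 and 9.38 in room air, and these overlap. In the same direction, 10 of 11 genes of the vascular basement membrane, 9 of 13 tip cell genes and 5 of 7 markers of pericytes and smooth muscle were negative, against 43.1% of all genes, with 0 called. With the level of the pigment epithelium markers described below as a covariate, the medians of these lists shrank to different degrees. They were -0.12 in place of -0.24 for the basement membrane and -0.02 in place of -0.13 for pericytes and smooth muscle. For the endothelial markers the median was -0.17 in place of -0.22, and for the tip cell genes -0.09 in place of -0.13. The erythroid gene Alas2, the only measured marker of red blood cells, read 8.89, 8.07 and 7.98 in hyperoxia and 9.41, 9.28 and 9.46 in room air (-1.07 ± 0.38, not passing); its part in the vessel values was not tested.

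The defining genes of the retina's own cells were present and did not pass at this time. Rod markers had a mean log2 level of 13.42, 13.55 and 13.36 in hyperoxia and 13.34, 13.59 and 13.39 in room air, and 0 of 11 were called. Of 12 Müller glia markers 0 were called, 9 were negative and 3 were lower without overlap, against 0.0755%, 43.1% and 2.29% of all genes. The largest difference among these by p was in Vim, an intermediate filament, at -0.37 ± 0.13, with no overlap. Of 10 ganglion cell markers 7 were positive and of 11 microglial markers 9 were positive, while 43.1% of all genes were negative. For 3 of the ganglion cell markers and 0 of the microglial ones the hyperoxia arrays lay higher without overlap, against 4.61% of all genes. Again 0 were called, which says little of short lists where so small a share of all genes was called.

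Lists of other responses to oxygen were also without calls, which says little of short lists where 0.0755% of all genes were called lower. Of 19 antioxidant genes 9 were negative and 2 were lower without overlap, against 43.1% and 2.29% of all genes, and 0 were called. Their median was 0.00, against 0.02 over all genes. Mt1, a metallothionein, was lower on every hyperoxia array at -0.45 ± 0.22. Of 17 genes of the citric acid cycle 6 were negative, against the same 43.1% of all genes, with a median of 0.03. The lists of p53 targets, the unfolded protein response, heat shock, cell death, the cell cycle, cholesterol synthesis and the circadian clock had medians between -0.03 and 0.09 and 0 calls. The unfolded protein and cell death lists each held 2 genes higher without overlap and 0 lower, against 4.61% and 2.29% of all genes. The cell cycle and clock lists each held 1 lower and 0 higher. Stat3, a transcription factor of glial reaction, was higher on every hyperoxia array at 0.30 ± 0.11, and Gfap, the astrocyte filament, was at 0.19 ± 0.17 with overlap.

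**Figure D4:**
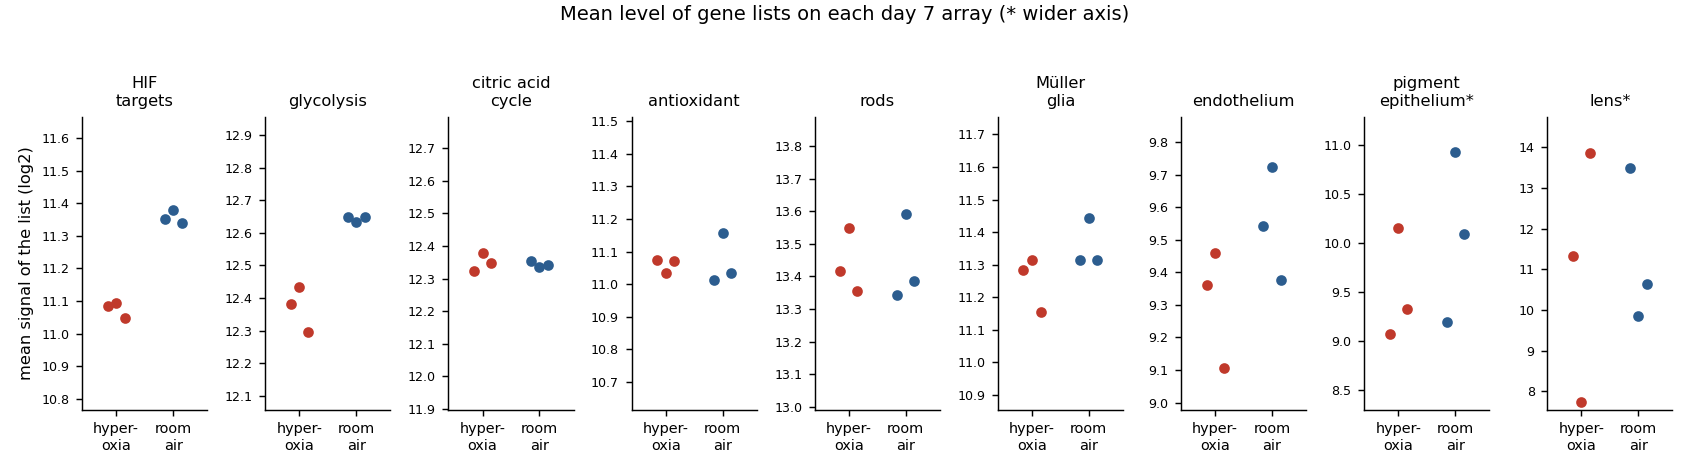
Mean normalized log2 level (y axis) of 9 gene lists on each hyperoxia (red) and room air (blue) array of day 7; the 7 left panels span equal ranges and the pigment and lens panels wider ones. Hyperoxia lies below room air without overlap for HIF targets and glycolysis, and the groups overlap for the other lists drawn, by the smallest margin for Müller glia (11.31 on the highest hyperoxia and the lowest room air array).

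Markers of tissue next to the retina varied widely between the arrays of both groups. The lens list, which holds crystallins, had mean log2 levels of 11.34, 7.74 and 13.86 in hyperoxia and 13.48, 9.84 and 10.64 in room air. The pigment epithelium list was at 9.07, 10.15 and 9.32 in hyperoxia and 9.19, 10.93 and 10.09 in room air. Of its 9 members 8 were negative, against 43.1% of all genes, and the median was -0.62. With the lens level of each array as a covariate 12 probe sets were called, all 10 among them; with the pigment level 8 were called, and Slc16a3 and Grhpr no longer passed. Leaving out single arrays lowered the count further, to 1 (Pgam1) when hyperoxia replicate 3 was dropped, to 6 when hyperoxia replicate 2 was dropped, to 5 when room air replicate 2 was dropped and to 4 when room air replicate 3 was dropped. Pgam1 passed whichever of the 6 arrays was left out. A fit on the 6 day 7 arrays alone called 0 probe sets, with 472 at an unadjusted p under 0.05.

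No probe set passed as higher in the fit over all probe sets; 1 did without the filter, 1 without room air replicate 1, and 1, that of Tyw1, with 1 probe set per gene. Among those whose arrays did not overlap, 655 were higher (4.14%) and 461 lower (2.91%). The higher one with the lowest p was that of Tyw1, an enzyme of transfer RNA modification, at 9.02, 9.26 and 8.84 in hyperoxia and 8.52, 8.40 and 8.38 in room air, a difference of 0.60 ± 0.12 (adjusted p = 0.0789, and 0.0479 to 0.9998 over the alternatives). Dlk2, a relative of the Notch ligands, was the largest of the rises named by rule (single symbol, no overlap, unadjusted p under 0.05), at 1.45 ± 0.47. All 3 of its room air arrays lay at the floor of 7.10 set on low values. Sntb2, a syntrophin, was at 1.00 ± 0.26 and Ttyh1, of a family of chloride channels, at 0.83 ± 0.20, with room air arrays at or near that floor too. Egr4, a transcription factor of the immediate early kind, was at 0.72 ± 0.21. Of the 14 measured immediate early genes 9 were positive and 5 negative, while 43.1% of all genes were negative, and 0 were called. Their median was 0.05, against 0.02 over all genes.

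Some negative differences as large as those of the called genes came with larger errors. Tmem144 differed by -1.73 ± 0.69, and Rnf19b, a ubiquitin ligase, by -1.65 ± 0.63. Foxc1, a forkhead factor of eye development, read 7.88, 7.10 and 7.69 in hyperoxia and 8.77, 8.74 and 8.15 in room air. Naalad2, a peptidase, differed by -0.97 ± 0.21 (adjusted p = 0.139). None of these passed. At least 1 hyperoxia array was at the floor for Tmem144, Rnf19b and Foxc1.

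The later days share no array with day 7 and show how the same probe sets stood after longer exposure at an older age, 2 things that change together here. The fit gives a probe set the same SE at every day. A small SE that helped a day 7 call therefore enters the later calls too, which are not fully separate from the selection. After 24 hours, at day 8, all 10 were lower without overlap and all 10 were called, with differences between -1.31 and -0.49. In that comparison 0.0821% of all probe sets were called lower, 5.49% were lower without overlap and 49% had a negative difference. At day 10, after 72 hours, all 10 were still lower without overlap but only Bnip3 and Pfkl were called, against 0.0568% of all probe sets called lower, 11.9% lower without overlap and 50.6% negative. At day 12, after 120 hours, 7 of the 10 were negative, 2 did not overlap and 0 were called, against 50.8%, 6.69% and 0.0126% of all probe sets.

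Vegfa differed by -0.88 at day 7, -1.04 at day 8, -0.51 at day 10 and 0.04 at day 12, each with an SE of 0.13. Pdk1 stood at -1.16, -1.31, -0.53 and -0.00 at the same days, each with an SE of 0.18. Slc16a3 was at -1.06, -1.05, -0.38 and 0.21. Grhpr and the second Ak4 probe set kept larger negative differences at day 12, -0.30 and -0.46. The median of the HIF list was -0.23 at day 7, -0.32 at day 8, -0.20 at day 10 and -0.06 at day 12.

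Whether the day 7 effect differed from a later one was tested as a difference of effects, and 0 probe sets passed against day 8, day 10 or day 12. At an unadjusted p under 0.05 there were 590 (3.73%), 1460 (9.22%) and 982 (6.2%). The 10 called probe sets were chosen for a low day 7 effect, which enters these differences too, so their values are given as a description. Against day 12 Vegfa differed by -0.92 ± 0.18 (adjusted p = 0.408) and Slc16a3 by -1.26 ± 0.26. Over the 10 probe sets the differences ran from -0.08 to 0.30 against day 8, from -0.68 to -0.05 against day 10 and from -1.26 to -0.46 against day 12.

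**Figure D5:**
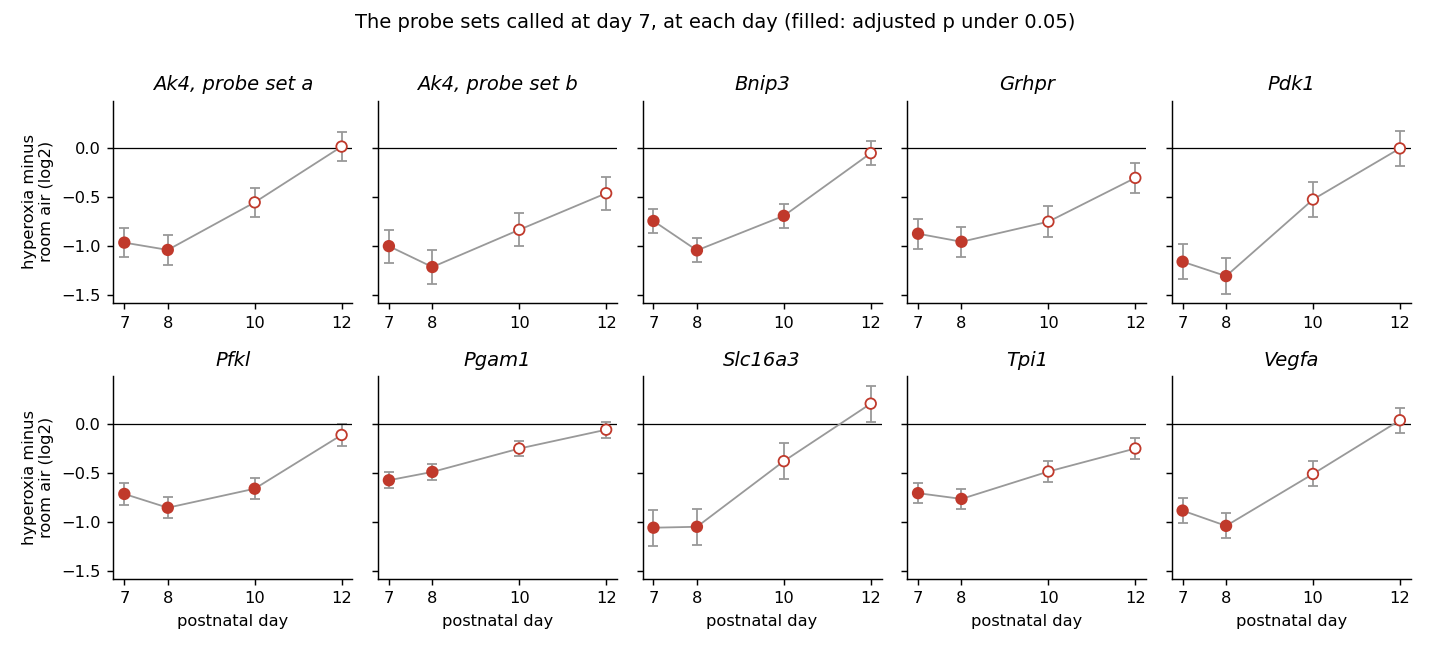
Log2 difference, hyperoxia minus room air (y axis), ± SE at postnatal days 7, 8, 10 and 12 (x axis; 12, 24, 72 and 120 hours of hyperoxia) for the 10 probe sets called at day 7. Filled points have an adjusted p under 0.05: all 10 at days 7 and 8, Bnip3 and Pfkl at day 10, and none at day 12, where the differences lie between -0.46 and 0.21.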

How the data were processed

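Total RNA of mouse retina was hybridised to 1-colour oligonucleotide arrays, 1 array per sample. The authors deposited 1 linear intensity per probe set and array; means trimmed by 2% per tail were 1500.35 to 1500.40 on every array, which shows that these deposited intensities carry the authors' scaling to a common mean. The software that made them is not given in the sources used here. Day 7 array medians ran from 613.9 to 677.55.

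Intensities were taken to log2 and, because array medians spanned 0.251, quantile normalized over the 24 arrays. Values under the 20th percentile (a signal of 137.4) were raised to it, which applied to 0.349% of the tested values, and differences near it are understated. The 64 control probe sets were left out, as were probe sets with a mean under the 30th percentile. Hyperoxia minus room air was a contrast in 1 limma fit (version 3.58.1, R 4.3.3) of 8 group means, with 16 residual and 3.55 prior degrees of freedom, and p-values were adjusted over 15838 probe sets. The procedure was tested on simulated data. The alternatives changed the normalization, floor, filter, prior, replicate block, probe sets per gene, covariates and arrays used.

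Probe sets were named from the platform annotation: 20380 had 1 symbol, 691 several and 1555 none, and RefSeq's table (GRCm38.p6) held the gene identifier of 20351 single-symbol probe sets under the same symbol. In list counts a gene's brightest probe set stands for it. The members and the 40 lists were chosen with earlier results of these data known. Named by rule were every called probe set and the genes' other probe sets, the 10 largest rises and falls without overlap at an unadjusted p under 0.05, members of the main lists and the 4 lowest p of each other list, and the 5 lowest p of each comparison of days. Plots were made in Python 3.11.15 with matplotlib 3.10.9.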

Additional observations from a re-analysis of the deposited data

Results flagged for a closer look

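In some of the probe sets named by rule, every hyperoxia array of day 7 lay on one side of the room air arrays. Every hyperoxia array of a later day lay on the other side. The items below come from the named probe sets only and are not a full count over all probe sets. The values below are the day 7 effect minus the later effect (log2), each tested in the limma fit; none passed, the lowest adjusted p being 0.193 for Tyw1, and opposite directions without overlap arise by chance among many probe sets. Against day 8 these were Egr4 at 1.35 and Nr1d2, a nuclear receptor of the circadian clock, at -0.39.

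Against day 10, higher at day 7 and lower later were Oas1a, an interferon-induced synthetase, at 2.81, Lin7b, a scaffold of synapses, at 1.66, the first Higd1a probe set at 1.40, Tyw1 at 0.98, Slc25a29, a mitochondrial carrier, at 0.95, the cone phosphodiesterase Pde6c at 0.95 and an Ero1a probe set at 0.28. Lower at day 7 and higher later were Zfp346 at -2.07, an Actb probe set at -1.56 and an unnamed probe set at -1.32. So were single probe sets of Thbs1, a matrix inhibitor of vessel growth, at -1.37, of Tgfa at -0.67 and of Igf1 at -0.58. At day 7 the other Tgfa probe sets differed by 0.40 and -0.07 between the groups, and the other Igf1 ones by -0.35 and 0.01.

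Against day 12, higher at day 7 and lower later were Trabd at 1.35, Polr3k, a subunit of RNA polymerase III, at 1.25 and the protease Tasp1 at 0.58. Lower at day 7 and higher later were the same unnamed, Actb and Tgfa probe sets at -1.29, -1.09 and -0.65. Kcnj10, the potassium channel of Müller glia, was at -0.62.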

How the results depend on the processing

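All 10 called probe sets stayed lower in hyperoxia under every alternative run. They were chosen for differences large against their errors on the same arrays, so a kept sign adds little. Of the 331 named probe sets that did not pass, many of them near 0, 124 had the other sign in at least 1 alternative (Hmox1 ran from -0.27 to 0.89). The medians of 15 of 33 lists did so too. The pigment list's median was 0.06 with its own covariate, and the lens list's ran from -1.77 to 1.34 leaving out arrays. The count of 10 became 17 with a robust, intensity-dependent prior and 0 with the 6 day 7 arrays alone (472 at an unadjusted p under 0.05), where 4 residual degrees of freedom remain. Under the other scaling, floor, filter, probe set and covariate settings it lay between 8 and 12. Leaving out 1 array gave 1 to 10 calls. Whether the replicate numbers pair the day 7 samples cannot be told from 3 arrays per group. Deviations of same-numbered arrays correlated at 0.0276 to 0.288, all positive, and those of other pairs at -0.400 to 0.307. Same-numbered pairs were at -0.310 to -0.0138 at day 8 and -0.0997 to 0.156 at day 10. At day 12 they were at 0.234 to 0.445, a hint of pairing there that the labels do not state. The other pairs of day 12 were at -0.336 to -0.0335. Deviations from a group mean sum to 0, so these negative values follow in part from the positive ones and are no separate evidence. With the replicate block 18 probe sets were called, all lower, the 10 among them. The difference of effects against day 8 gave 0 calls in every setting. Against day 10 it gave 1 without the filter and 0 to 2 leaving out arrays; against day 12 it gave 1 without the filter, 1 with the replicate block (Slc16a3) and 0 to 2 leaving out arrays. The HIF list's median of -0.23 was -0.28 with the deposited scaling, -0.20 with the pigment covariate, -0.27 as a mean over all probe sets of a gene, and -0.26 to -0.19 leaving out arrays. The cause of these shifts was not tested. No scaling moved the median of all probe sets by over 0.1. The signal floor limits what can be said of dim genes.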

Other observations

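Probe sets of one gene did not always point the same way at day 7. Higd1a, a mitochondrial protein induced by hypoxia, read 9.12, 8.37 and 8.45 in hyperoxia and 8.34, 7.95 and 7.32 in room air by one probe set, a difference of 0.78 ± 0.34, while its others differed by -0.30 ± 0.14 and -0.22 ± 0.17. Thbs1 differed by -0.86 ± 0.31 by one probe set, with no overlap, and by -0.05 ± 0.24 by the other. None of these passed the adjusted threshold.

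Pygm, the muscle form of glycogen phosphorylase, was the gene of the glycogen list with the lowest p: it read 9.67, 9.76 and 9.89 in hyperoxia and 9.34, 9.58 and 9.11 in room air, a difference of 0.43 ± 0.15 that did not pass. The ratios of the 3′ to the 5′ control probe sets, a sign of RNA quality, overlapped between the groups, at 0.819 to 0.884 in hyperoxia and 0.751 to 0.837 in room air for Gapdh, and at 1.08 to 1.28 in hyperoxia and 1.05 to 1.22 in room air for Actb.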
